A study of Mus musculus with 12 samples.

Results

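Ezr and 6 further genes, Frmd4a, S100a10, Rhoj, Sept9, Syt6 and Pdxk, were followed across HA and IgG pull-downs of the mouse small-intestinal muscularis. They are 7 of the 12975 genes in the table and were picked because their change from T0 to T3 was larger in HA than in IgG, so that contrast and every other value from the same 12 libraries is given here as a description, without a test. The mice carried PLPCreERT2, a tamoxifen-inducible Cre directed to glia, and Rpl22HA, a ribosomal protein that gains an HA tag where Cre has acted. The tagged allele came from the strain B6J.129(Cg)-Rpl22tm1.1Psam/SjJ. All groups, controls included, share both alleles and tamoxifen, given as 2 intraperitoneal injections at 10 to 12 weeks of age and 3 to 4 weeks before tissue was taken. Tissue came from 3 naive mice (T0; animals 1, 2 and 4) or from 3 mice taken 3 h after intestinal manipulation (T3; animals 1, 3 and 4), a surgical handling of the bowel that inflames its muscle layer. The supernatant of each animal was divided between anti-HA and mouse IgG1, which gave 4 groups of 3 libraries.

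Ezrin, with its relatives radixin and moesin, forms the ERM family, which ties the plasma membrane to cortical actin through an amino-terminal FERM domain. Small GTPases of the RhoA and Cdc42 type switch actin assembly on and off, septins form filaments that scaffold actin and membranes, and S100A10 pairs with annexin A2 at the membrane. Enteric glial cells are the glia of the gut wall, with processes that wrap neurons in the myenteric ganglia. Of the 7 genes, Ezr, Frmd4a, Rhoj and Sept9 act on the cytoskeleton or cell polarity and S100a10 acts at the cortical membrane. Syt6 belongs to the synaptotagmins, sensors of calcium in vesicle fusion, and Pdxk encodes pyridoxal kinase of vitamin B6 metabolism, so neither is a cytoskeletal gene.

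Promoter windows are shown for the genes whose start regions held a motif of transcription factors that respond to serum, stress or stretch. That the 7 genes moved together at T3 is set by how they were chosen. RefSeq gave 14 windows, of 250 bases before to 50 after a transcript start, for 6 of the 7 genes (GRCm38.p6), with none for S100a10. Capitals mark the AP-1 motif TGANTCA in Ezr, Sept9 and Syt6 and the CArG box, the site of serum response factor, in Rhoj. Windows are written 5′ to 3′ on the strand of the gene, chr17:6782731-6783030 (minus) for Ezr, chr11:117331465-117331764 (plus) for 1 of the 4 Sept9 windows, chr3:103575876-103576175 (plus) for 1 of the 3 Syt6 windows and chr12:75308063-75308362 (plus) for Rhoj.
Ezr: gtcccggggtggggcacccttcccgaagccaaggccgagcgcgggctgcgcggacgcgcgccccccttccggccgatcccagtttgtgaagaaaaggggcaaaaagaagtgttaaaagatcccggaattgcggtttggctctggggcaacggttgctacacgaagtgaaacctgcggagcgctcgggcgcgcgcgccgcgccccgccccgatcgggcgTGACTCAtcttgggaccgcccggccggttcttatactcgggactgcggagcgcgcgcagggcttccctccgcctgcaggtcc
Sept9: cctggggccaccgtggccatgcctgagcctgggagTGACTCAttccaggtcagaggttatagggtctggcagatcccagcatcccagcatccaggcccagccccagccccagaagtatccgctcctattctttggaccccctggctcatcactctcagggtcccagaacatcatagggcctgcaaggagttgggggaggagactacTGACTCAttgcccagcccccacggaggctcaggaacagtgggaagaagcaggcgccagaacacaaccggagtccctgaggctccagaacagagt
Syt6: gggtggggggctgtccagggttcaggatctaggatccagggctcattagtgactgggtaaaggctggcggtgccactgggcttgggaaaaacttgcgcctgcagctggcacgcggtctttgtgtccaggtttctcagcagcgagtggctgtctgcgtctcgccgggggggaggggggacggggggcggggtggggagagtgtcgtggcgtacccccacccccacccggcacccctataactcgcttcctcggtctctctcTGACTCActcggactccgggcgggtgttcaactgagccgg
Rhoj: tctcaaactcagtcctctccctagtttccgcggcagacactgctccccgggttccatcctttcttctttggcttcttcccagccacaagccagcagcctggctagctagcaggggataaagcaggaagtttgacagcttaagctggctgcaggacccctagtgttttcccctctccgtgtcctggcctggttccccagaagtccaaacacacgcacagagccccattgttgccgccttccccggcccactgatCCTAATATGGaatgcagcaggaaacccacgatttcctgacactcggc

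The AP-1 letters lay 32 to 26 bases before the start of Ezr, 215 to 209 and 44 to 38 bases before that of Sept9, and 10 to 16 bases after that of Syt6. Both strands were searched. AP-1 was present in 3 of the 14 windows, against 7.81% of 32851 windows of all genes. The CArG box was present in 1 of 14, at 3 to 12 bases after the Rhoj start, against 1.63% of all windows. The TEAD motif GGAATG matched in 2 of 14 windows, against 14.66% of all windows. In Rhoj it overlapped the CArG box and in Sept9, on the minus strand, the distal AP-1 match. No window held the CRE motif TGACGTCA (1.79% of all windows), the STAT motif TTCNNNGAA (8.3%), the EGR motif GCGNGGGCG (5.55%) or the NF-kB motif (4.51%). These matches describe letters in a window and were not tied to binding by any measurement here.

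**Figure D1:**
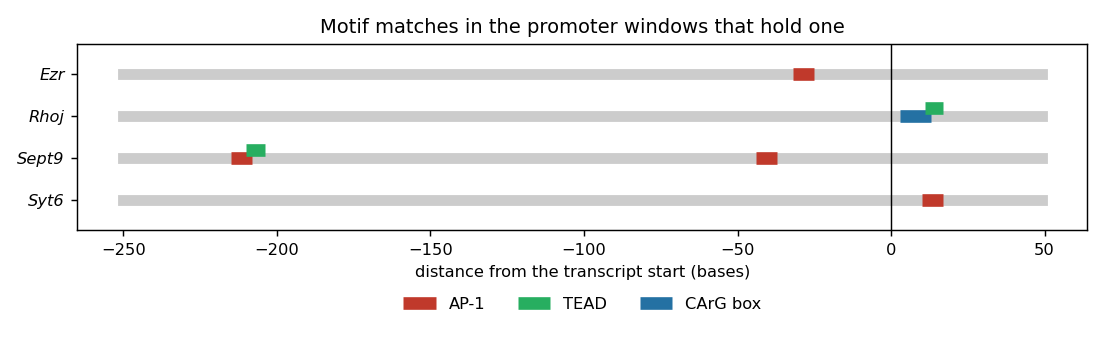
Map of motif matches in the 4 promoter windows that held one, by distance in bases from the transcript start. Grey bars are the 300-base windows and coloured blocks the matches: AP-1 lies in Ezr, Sept9 and Syt6, and the CArG box and TEAD letters overlap just after the start of Rhoj.

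Libraries held 1221788 to 2870591 UMI counts in HA, 388214 to 1289833 in IgG at T0 and 88136 to 248522 in IgG at T3. Values are given as CPM, UMI counts scaled to a common library total. A count of 3, the limit that a count of 0 allows, was 1.05 CPM in the deepest library and 34.0 CPM in IgG T3 animal 1, for counting error only. The targeted cells were checked by 10 glial markers, whose summed CPM was 3686 to 4554 in HA and 178 to 242 in IgG at T0. Of these, 10 of 10 were higher in HA at T0 by edgeR (16% of all genes were). From T0 to T3 in HA, 3 of the 10 rose and 1 fell by edgeR (18.7% and 15.1% of all genes). Mean Gfap went from 118 to 1715 CPM and mean Gpr37l1 from 1723 to 785 CPM. The marker sum at T3, of which Gfap was the largest part in HA, was 4515 to 5209 in HA. In IgG at T3 it was 999 in animal 1, 913 in animal 3 and 229 in animal 4, so 2 of the 3 IgG libraries at T3 had a higher glial marker sum than those at T0. Of 3 markers of interstitial cells of Cajal, 2 were also higher in HA at T0 (16% of all genes were). Their summed CPM was 2604 to 3366 in HA and 233 to 315.5 in IgG at T0, and 1170 to 1533 in HA at T3. Smooth muscle markers, summing to 17168 to 26060 CPM, remained in HA at T0. The pull-down was therefore enriched for glial RNA and for markers of interstitial cells of Cajal, and not free of RNA of other cells.

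All 7 genes were highest in HA at T3. In each, the 3 HA libraries at T3 lay above the other 9 libraries, while the other 3 groups overlapped with their neighbours in the order of means apart from 3 cases. These were Ezr, lower in HA T0 than in IgG T0, Frmd4a, higher in IgG T3 than in IgG T0, and Sept9, higher in IgG T3 than in HA T0. Between the HA groups, 15.6% of all genes were higher at T3 than at T0 without overlap. The ratio of mean CPM, HA T3 over HA T0, ran from 2.63 for S100a10 to 11.2 for Syt6, with a median of 6.35. In IgG the same ratio ran from 0.774 for S100a10 to 1.94 for Frmd4a, with a median of 1.18. Across all genes, 31 of 10314 passed the interaction test of edgeR in the positive direction (0.301%), and the 7 are among them by choice, so nothing is read from that. In bulk pull-downs a larger number of tagged cells and more RNA per cell cannot be told apart.

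**Figure D2:**
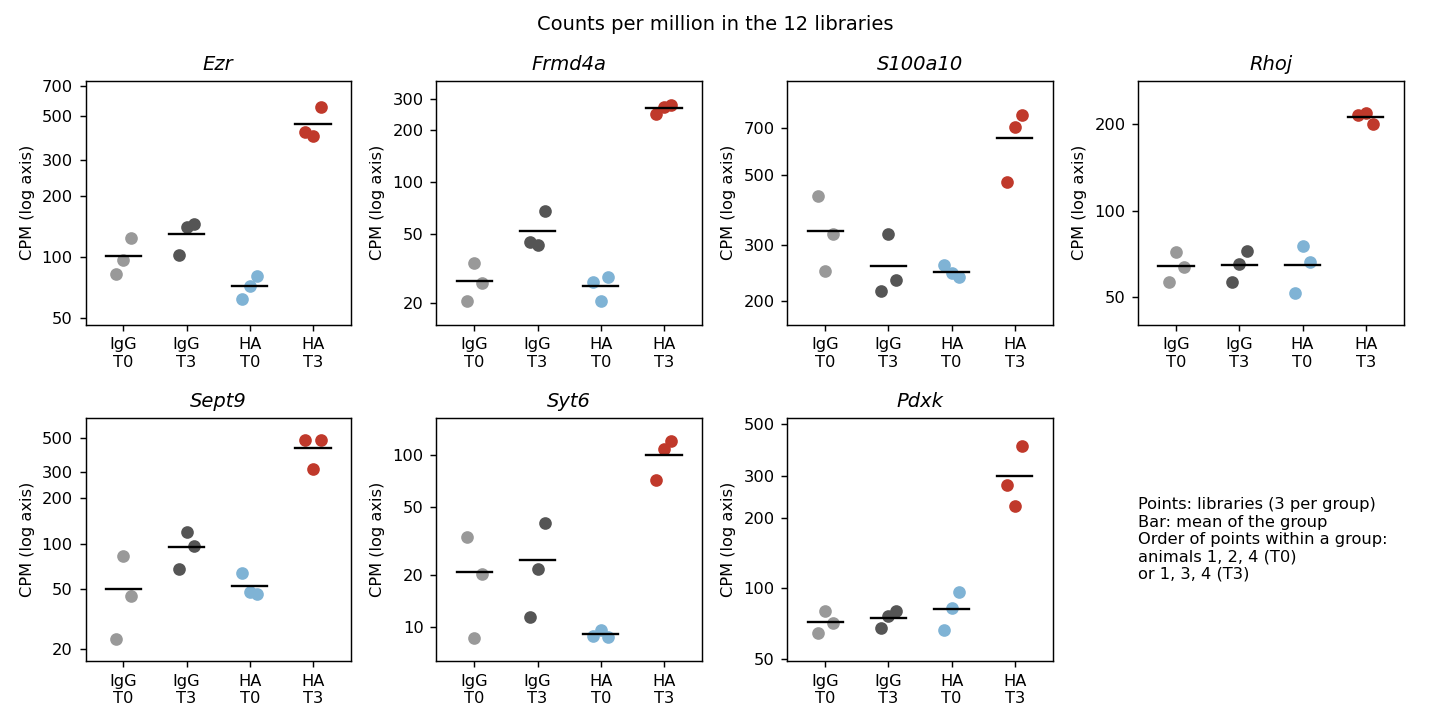
CPM (log axis) of each gene in the 12 libraries, by antibody and time, with 1 point per library and a bar at the mean of 3. The HA T3 points lie above all others in every panel.

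Ezr, the founding ERM linker, lies at chr17:6738041-6782784 on the minus strand (GRCm38). In HA it read 61.8, 72.1 and 80.8 CPM at T0 in animals 1, 2 and 4. At T3 it read 412, 398 and 554 CPM in animals 1, 3 and 4. The groups did not overlap, and the fitted change was 2.94 ± 0.20 on the log2 scale (SE). In IgG it read 82.4, 96.0 and 124 CPM at T0 and 102, 141 and 145 CPM at T3, which overlapped, with a fitted change of 0.35 ± 0.34. At T0 it was lower in HA than in IgG in all 3 animals, by -0.55 ± 0.22, and at T3 it was higher in all 3, by 1.86 ± 0.29. Ezrin is also abundant in epithelium and mesothelium. The summed CPM of 10 epithelial markers was 135 to 434 in HA at T0 and 50.8 to 105 in HA at T3, and that of 8 mesothelial markers was 176 to 214 and 14.0 to 22.9. The part of such RNA in the Ezr values was not tested.

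Frmd4a, a FERM-domain protein that links cytohesins to the polarity protein PAR3, lies at chr2:4017717-4614043 on the plus strand. It read 26.5, 20.7 and 28.6 CPM in HA at T0. At T3 the HA values were 247, 272 and 280 CPM, with a mean of 266 ± 16.8 (SD, n = 3). The groups did not overlap and the fitted change was 3.65 ± 0.20. In IgG it read 20.6, 34.3 and 26.4 CPM at T0 and 45.4, 43.5 and 68.4 CPM at T3. It was the single gene of the 6 tested in IgG whose IgG groups did not overlap either (13.4% of all genes were higher without overlap there), with a change of 1.03 ± 0.44. The IgG values at T3 rest on 4, 4 and 17 counts.

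S100a10, the partner of annexin A2, lies at chr3:93555080-93564643 on the plus strand. It was the least changed of the 7 genes in HA. It read 260, 245 and 239 CPM in HA at T0, a mean of 248 ± 10.96, and 476, 706 and 772 CPM at T3. Animal 1 was the lowest at T3, yet above all T0 libraries, and the fitted change was 1.66 ± 0.19. In IgG the values were 428, 249 and 325 CPM at T0 and 216, 326 and 233 CPM at T3, which overlapped, with a fitted change of -0.41 ± 0.31. S100a10 was thus the single gene of the 6 tested in IgG with a negative IgG change, within 2 SE of 0.

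Rhoj, a small GTPase of the Cdc42 group known from endothelial cells, lies at chr12:75308322-75401456 on the plus strand. It read 51.8, 75.4 and 66.2 CPM in HA at T0. At T3 it read 214, 218 and 199 CPM, without overlap, a fitted change of 1.98 ± 0.19. In IgG it stood at 56.7, 72.0 and 63.6 CPM at T0 and 56.7, 65.2 and 72.4 CPM at T3, a fitted change of 0.04 ± 0.38. HA at T0, IgG at T0 and IgG at T3 had means of 64.5, 64.1 and 64.8 CPM, closer together than the spread within each group. The summed CPM of 8 endothelial markers was 48.1 to 68.7 in HA at T0 and 52.4 to 59.95 in HA at T3, and these ranges overlapped. Of the 4 endothelial markers tested there, 1 was higher at T3, the tight-junction gene Cldn5, which read 5.38, 5.59 and 3.83 CPM at T0 and 18.01, 18.05 and 29.59 CPM at T3. The part of endothelial RNA in the Rhoj values was not tested.

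Sept9, which encodes septin 9, lies at chr11:117199661-117362325 on the plus strand. In HA it read 63.7, 47.5 and 46.3 CPM at T0 and 486, 314 and 487 CPM at T3, without overlap, and the fitted change was 3.28 ± 0.22. In IgG it read 23.2, 82.3 and 45.0 CPM at T0 and 68.1, 120 and 96.6 CPM at T3, which overlapped, with a change of 0.90 ± 0.46. The IgG value at T0 spread widely, and the HA over IgG ratio within an animal at T0 ran from 0.577 in animal 2 to 2.75 in animal 1. Without IgG T0 animal 2 the difference between HA and IgG at T0 moved from 0.03 to 0.51 on the log2 scale.

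Syt6 lies at chr3:103575231-103645569 on the plus strand and had the largest fitted change in HA and the smallest counts. It read 8.83, 9.499 and 8.71 CPM in HA at T0 (23, 17 and 25 counts). At T3 it read 72.0, 109 and 121 CPM in HA (88, 163 and 155 counts), without overlap, and the fitted change was 3.75 ± 0.26. In IgG it read 33.5, 8.57 and 20.2 CPM at T0 and 11.4, 21.7 and 40.2 CPM at T3. Those T3 values rest on 1, 2 and 10 counts, and Syt6 failed the filter on low counts in the IgG contrast. In the 6 alternatives that did fit it there, the change ran from 0.34 to 0.77. At T0 the HA values lay near the lowest IgG value, with a difference of -1.17 ± 0.44 between HA and IgG and overlapping groups.

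Pdxk, the kinase that makes the active cofactor pyridoxal phosphate from pyridoxal, lies at chr10:78436744-78464975 on the minus strand. It read 66.8, 82.7 and 96.8 CPM in HA at T0. At T3 it read 275, 225 and 405 CPM, without overlap, a fitted change of 2.15 ± 0.22. Animal 4 was the highest. In IgG it read 64.4, 80.6 and 71.3 CPM at T0 and 68.1, 76.1 and 80.5 CPM at T3, which overlapped, with a change of 0.07 ± 0.36.

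**Figure D3:**
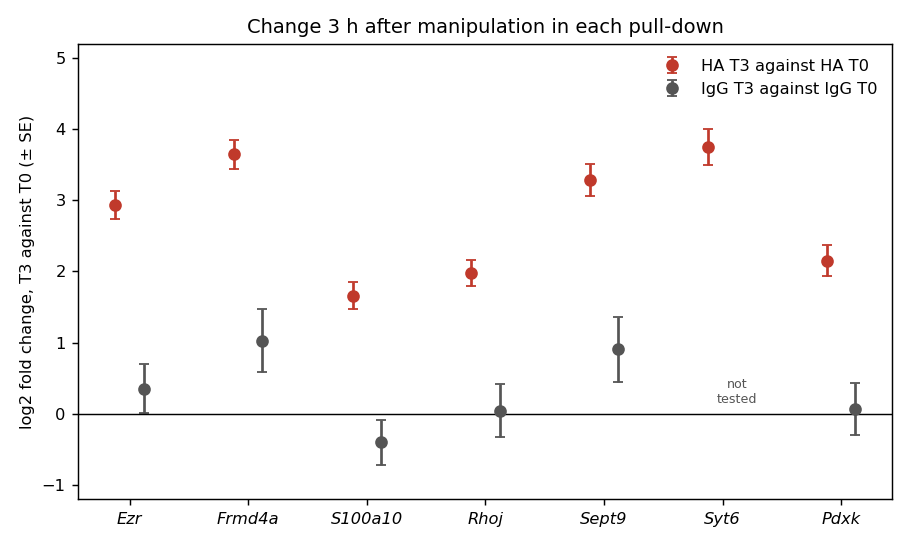
Fitted log2 fold change from T0 to T3 (points) with its SE (bars) in HA (red) and in IgG (grey) for the 7 genes. HA changes run from 1.66 to 3.75 and IgG changes from -0.41 to 1.03, and Syt6 was not tested in IgG.

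Side by side, the difference between the HA and the IgG change, which chose the genes, was 3.26 ± 0.62 for Syt6, 2.69 ± 0.42 for Frmd4a and 2.66 ± 0.36 for Ezr on the log2 scale. It was 2.48 ± 0.47 for Sept9, 2.16 ± 0.40 for Pdxk, 2.15 ± 0.36 for S100a10 and 2.01 ± 0.38 for Rhoj. By p-value Ezr ranked 1st of the 31 genes that passed in this direction and Sept9, the last of the 7, ranked 13th. These p-values come from the contrast that chose the genes, so nothing is read from the ranks. The last gene inside the threshold was Trex1 at 1.71 ± 0.39 and the first outside was Rusc2 at 1.73 ± 0.40. With library totals in place of TMM as the scaling, the median of all genes in this contrast moved from 0.18 to -0.18, and the 7 values then ran from 1.66 to 2.91. The HA changes ran from 1.39 to 3.48 under that scaling, where the median of all genes was -0.29 in place of -0.02.

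Within an animal, HA and IgG came from the same homogenate, and the CPM ratio between them shows each mouse on its own. At T0 the 21 ratios ran from 0.264 to 2.75, and 10 of 21 were above 1. At T3 they ran from 2.17 to 7.14, and 21 of 21 were above 1. The exact 95% counting interval lay above 1 for 2 and below 1 for 6 of the 21 ratios at T0, and above 1 for 21 of 21 at T3. The intervals cover counting error only and are no test of these genes, since the rule used the same values. For Ezr the ratio was 0.750, 0.751 and 0.652 in animals 1, 2 and 4 at T0. It was 4.04, 2.82 and 3.82 in animals 1, 3 and 4 at T3. For Frmd4a it was 1.29, 0.603 and 1.08 at T0 and 5.45, 6.25 and 4.09 at T3. The widest interval was that of Syt6 in T3 animal 1, 1.11 to 253.5, where IgG held 1 count. At T0 no gene of the 7 exceeded its IgG values in HA without overlap (24.7% of all genes were), and Ezr was lower without overlap (20.1% of all genes were). At T3 all 7 were higher without overlap (19.4% of all genes were). This order of T0 and T3 largely restates how the genes were chosen. The larger glial marker sum in IgG T3 animals 1 and 3 stands beside these ratios, and its part in them was not tested.

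**Figure D4:**
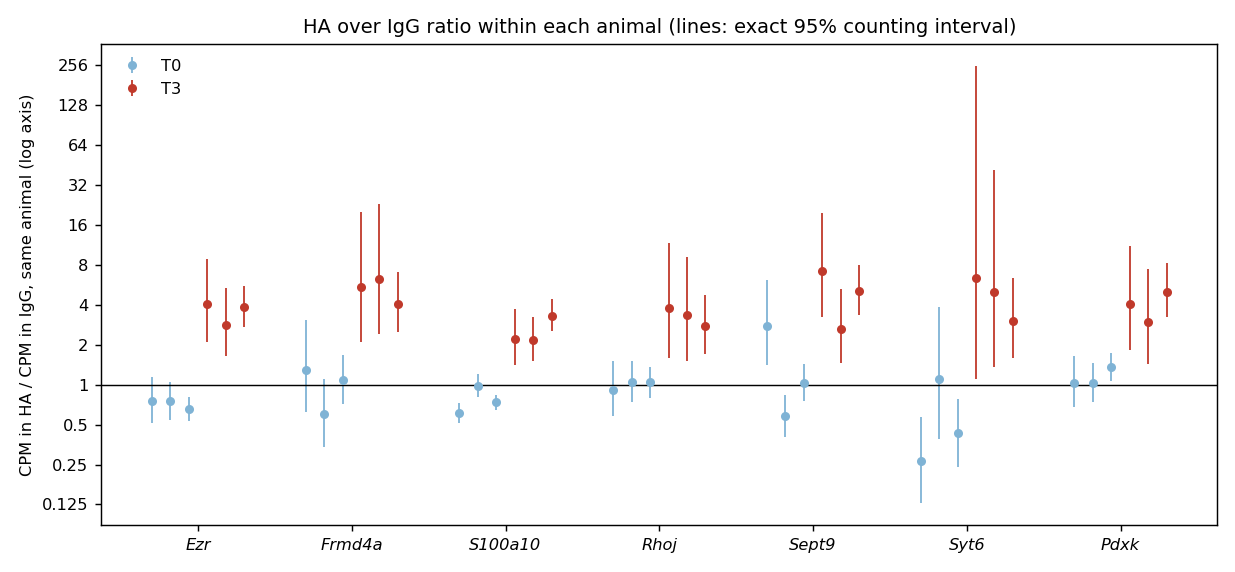
Ratio of CPM in HA to CPM in IgG of the same animal (log axis) for each gene, at T0 (blue, animals 1, 2 and 4) and T3 (red, animals 1, 3 and 4), with exact 95% intervals for counting error. T0 ratios run from 0.264 to 2.75 and T3 ratios lie between 2.17 and 7.14.

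The 7 genes were compared with 168 listed relatives and partners, of which 155 were in the table, to place each in its family. None of 142 tested relatives passed the interaction test of edgeR (34 of all genes, 0.33%, did). That test did not pair HA with IgG of the same animal. The unadjusted p of 32 relatives (22.5%) was below 0.05, as was that of 1081 of all genes (10.5%). In simulated data the test recovered 40.4% of differences of 2 on the log2 scale, so a relative that did not pass may still differ. The simulation gave every gene the same spread between libraries beyond counting error, so that rate need not hold here. When the animal entered as a block, which keeps the pairing, 158 of all genes and 7 relatives passed. By DESeq2, 83 of all genes and 3 relatives passed. The 7 were Wdr1, Anxa2, Vamp2, Rhob, S100a6, S100a11 and Actb, each with a positive difference (HA change minus IgG change). Those by DESeq2 were Rhob, S100a6 and Wdr1. Without IgG T3 animal 3, Anxa2 passed without the block as well. In HA alone, 57 of 139 relatives passed T3 against T0, 48 higher and 9 lower. That share was read against 33.8% of all genes, 18.7% higher and 15.1% lower. Scaled by library totals, 34 relatives were higher and 18 lower, and over all genes the share of calls that were higher moved from 55.4% to 31.1%. Between the pull-downs, 55 of 139 relatives differed at T0, 30 of them more abundant in HA and 25 in IgG (30.3% of all genes, 16% and 14.4%). At T3 36 of 123 did, 25 more abundant in HA and 11 in IgG (21.9% of all genes, 11.8% and 10.2%). The direction of single relatives below is given with TMM scaling. Counts per list in HA stand beside the 18.7% of all genes that rose and the 15.1% that fell.

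**Figure D5:**
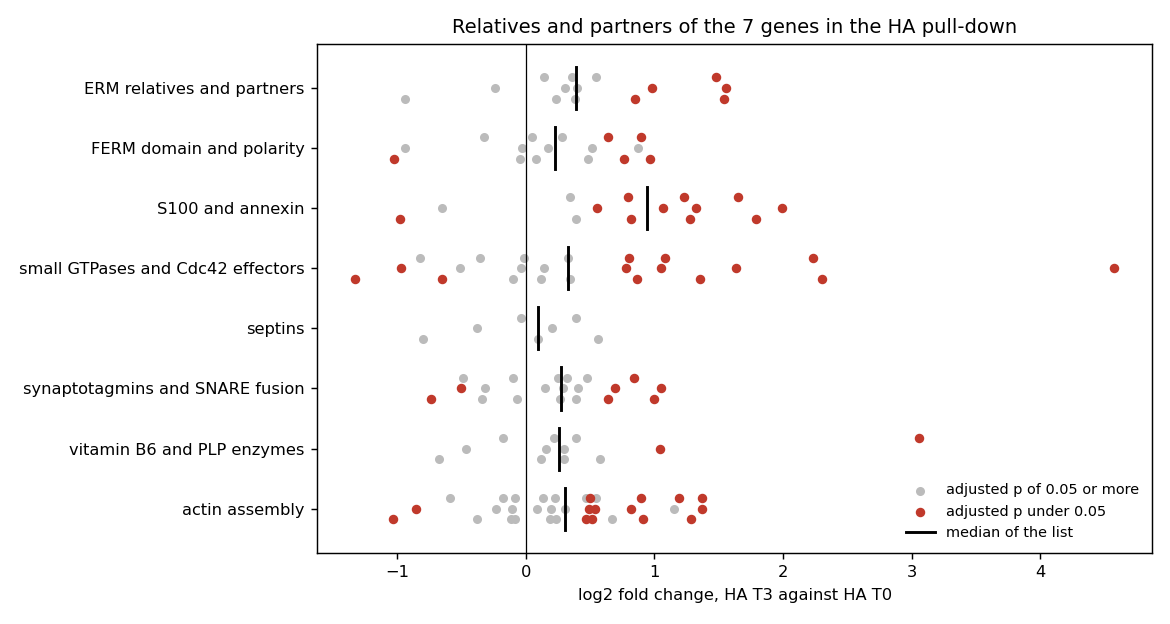
Log2 fold change of each tested relative, HA T3 against HA T0, in the 8 lists (rows), with red points for an adjusted p under 0.05 and a black bar at the median of a list. The list of S100 proteins and annexins has the highest median, 0.94, and none of the 7 tested septins passed.

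Among the relatives and partners of ezrin, 5 of 14 rose in HA and none fell, with a list median of 0.39. Neither other ERM protein passed in HA. Moesin (Msn) read 28.8, 38.6 and 62.0 CPM at T0 and 52.4, 55.5 and 49.05 CPM at T3, an overlap, with a change of 0.55 ± 0.24 (edgeR adjusted p = 0.0871). It passed without HA T0 animal 4 (adjusted p = 0.0113), and its adjusted p ran from 0.0113 to 0.415 over the 13 alternatives. Radixin (Rdx) had a change of 0.36 ± 0.30 (adjusted p = 0.381), and was lower in HA than in IgG at T0, by -1.26 ± 0.31 (adjusted p = 0.00704). Merlin (Nf2), a FERM-domain tumour suppressor, changed by 0.14 ± 0.17 in HA (adjusted p = 0.557), and the scaffold Slc9a3r1, which binds ezrin, by 0.40 ± 0.20 (adjusted p = 0.122). The membrane partners Cd44 and Pdpn rose. Cd44, a hyaluronan receptor anchored by ERM proteins, rose from 55.3, 49.2 and 69.7 CPM to 163, 144 and 117 CPM in HA, by 1.54 ± 0.19 (adjusted p = 2.939e-06). Podoplanin (Pdpn), another ERM-binding membrane protein, rose by 1.48 ± 0.24 (adjusted p = 9.65e-05). The kinases Rock1 and Rock2, which act downstream of RhoA, rose by 1.56 ± 0.42 and 0.98 ± 0.24 (edgeR adjusted p = 0.00774 and 0.00378). Rock1 had 25, 8 and 8 counts in HA at T0 and was lower there than in IgG, by -2.27 ± 0.55 (adjusted p = 0.00757). Cd44 also rose in IgG, by 1.85 ± 0.49 (adjusted p = 0.0428), a call lost in 5 of 13 alternatives, each of which left out 1 IgG library (adjusted p from 0.0918 to 0.189).

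Among the FERM-domain and polarity genes, 4 of 16 rose and 1 fell in HA, with a median of 0.23. Kindlin-2 (Fermt2), an activator of integrins, rose by 0.90 ± 0.18 (edgeR adjusted p = 0.000693), and Frmd6, a FERM protein of the Hippo pathway, by 0.97 ± 0.21 (adjusted p = 0.00119). At T0 Fermt2 was lower in HA than in IgG, by -0.90 ± 0.20 (adjusted p = 0.00367). The partners of Frmd4a were close to the threshold. Cyth1, a cytohesin, rose by 0.77 ± 0.25 (adjusted p = 0.0218), but not when animal 1 of HA T0 (0.0816) or animal 3 of HA T3 (0.0717) was left out, over an adjusted p range of 0.0221 to 0.136. Pard3, which encodes PAR3, rose by 0.64 ± 0.23 (adjusted p = 0.0345), a call lost in 7 of 13 alternatives. Those included the fits that left out animal 1 or 2 of HA T0 (0.0989 and 0.109) and animal 1 or 4 of HA T3 (0.0792 and 0.123). In IgG the fitted changes of Cyth1 and Pard3 were larger than in HA, though neither passed. They were 1.603 ± 0.449 for Cyth1 (adjusted p = 0.0547) and 0.97 ± 0.453 for Pard3 (adjusted p = 0.237). The HA change minus the IgG change was thus negative, at -0.754 ± 0.485 for Cyth1 and -0.198 ± 0.473 for Pard3. Neither difference passed the interaction test (adjusted p = 0.625 and 0.927). Frmd4b, the nearest paralog of Frmd4a, did not pass the filter on low counts in HA.

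The list of S100 proteins and annexins moved most, with 10 of 14 higher and 1 lower in HA and a median of 0.94. Anxa2, the annexin that S100A10 binds, rose from 278, 284 and 284 CPM to 819, 768 and 846 CPM, by 1.79 ± 0.16 (edgeR adjusted p = 4.374e-08). At T0 it did not pass between HA and IgG (0.18 ± 0.22, adjusted p = 0.559) and at T3 it was higher in HA, by 1.26 ± 0.33 (adjusted p = 0.00917, and 0.0586 without animal 4 of HA T3, the highest of 13 alternatives). Ahnak, a giant scaffold protein recruited by that complex, rose from 117, 161 and 110 CPM to 511, 353 and 420 CPM in HA, by 1.99 ± 0.20 (adjusted p = 1.614e-07). It also rose in IgG, by 1.22 ± 0.28 (adjusted p = 0.0194, and 0.0622 to 0.139 without IgG T0 animal 1, 2 or 4 or IgG T3 animal 4), and was lower in HA than in IgG at T0, by -1.13 ± 0.22 (adjusted p = 0.00145). S100a6, a calcium-binding protein, rose by 1.32 ± 0.18 in HA (adjusted p = 7.751e-06). It exceeded IgG at T0 by 1.23 ± 0.19 (adjusted p = 0.000343) and at T3 by 2.19 ± 0.28 (adjusted p = 3.764e-05). S100a16 also exceeded IgG at T0 (1.85 ± 0.19, adjusted p = 7.142e-06) and rose by 1.27 ± 0.17 in HA (adjusted p = 6.995e-06). S100a11 rose by 1.07 ± 0.21 in HA (adjusted p = 0.000737). The single member of the list that fell, Anxa3, lost its call in 10 of 13 alternatives, 5 of which left out 1 HA library (all but animal 4 of HA T0).

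Of 23 small GTPases related to Rhoj and effectors of Cdc42, 10 rose and 3 fell in HA, with a median of 0.33. The GTPases with the largest rises were atypical or inducible. Rnd1, which opposes RhoA, rose from 4.22, 1.12 and 1.04 CPM to 47.5, 50.8 and 36.6 CPM, by 4.58 ± 0.39 (edgeR adjusted p = 2.01e-08). It also rose in IgG, by 5.56 ± 0.65 (adjusted p = 0.000104), to 114, 196 and 105 CPM, and was lower in HA than in IgG at T3, by -1.45 ± 0.33 (adjusted p = 0.00416). Rnd3 rose by 2.31 ± 0.25 in HA (adjusted p = 4.793e-07) and exceeded IgG at T0, by 1.85 ± 0.45 (adjusted p = 0.00646), and at T3, by 3.00 ± 0.58 (adjusted p = 0.00115). Rhob rose by 2.23 ± 0.18 in HA (adjusted p = 5.692e-09) and by 1.13 ± 0.29 in IgG (adjusted p = 0.0368, and 0.0548 to 0.153 without any 1 of the 6 IgG libraries). The close relatives of Rhoj moved less. Rhoq rose by 0.80 ± 0.22 (adjusted p = 0.0074, and 0.0596 with library totals as scaling, the highest of 13 alternatives). Cdc42 changed by 0.15 ± 0.18 (adjusted p = 0.546). Rhobtb1, an atypical GTPase, fell by -1.32 ± 0.33 (adjusted p = 0.00371).

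Of 7 other septins tested in HA, none rose or fell by edgeR or by DESeq2. By edgeR 18.7% of all genes rose and 15.1% fell, and with 7 genes the count is not read as a trait of the family. Of these septins, 1 had an unadjusted p under 0.05 by edgeR, and their median was 0.09. Sept2 changed by 0.09 ± 0.18 (edgeR adjusted p = 0.722), Sept11 by 0.56 ± 0.35 (adjusted p = 0.226) and Sept7, the core subunit of septin filaments, by -0.38 ± 0.25 (adjusted p = 0.247). With library totals as scaling Sept6 and Sept7 were called lower (adjusted p = 0.0337 and 0.0465). At T0, Sept8 exceeded IgG in HA by 2.17 ± 0.28 (adjusted p = 5.857e-05) and Sept7 lower by -1.07 ± 0.28 (adjusted p = 0.00938), while Sept9 overlapped between the pull-downs.

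Of 20 synaptotagmins and SNARE fusion genes, 5 rose and 2 fell in HA, with a median of 0.28. The vesicle SNARE Vamp2 rose by 0.84 ± 0.18 (edgeR adjusted p = 0.00108) and the plasma-membrane SNARE Stx3 by 1.05 ± 0.26 (adjusted p = 0.00422). At T3 Vamp2 was higher in HA than in IgG, by 0.84 ± 0.28 (adjusted p = 0.0385), a call lost in 5 of 13 alternatives. Stx3 was lower in HA at T3, by -1.16 ± 0.40 (adjusted p = 0.0425), a call lost in 9 of 13. Syt11, a synaptotagmin, read 354, 354 and 354 CPM in HA at T0 and 349, 368 and 339 CPM at T3, a change of 0.25 ± 0.16 (adjusted p = 0.237). It exceeded IgG in HA at T0, by 1.3 ± 0.25 (adjusted p = 0.00157), and at T3, by 1.85 ± 0.29 (adjusted p = 0.000196). Syt1, the calcium sensor of fast neurotransmitter release, rose by 0.99 ± 0.32 in HA (adjusted p = 0.0213), a call lost in 5 of 13 alternatives. Among these were the fits without animal 4 of HA T0 (0.103) and without animal 1 or 4 of HA T3 (0.118 and 0.0752), over a range of 0.002 to 0.133. Syt1 was lower in HA than in IgG at T0, by -2.385 ± 0.352 (adjusted p = 0.000214). At T3 it was lower by -1.98 ± 0.50 (adjusted p = 0.00839, and 0.445 without animal 4 of IgG T3). Syt9 changed by 0.15 ± 0.26 in HA (adjusted p = 0.686).

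Of 12 tested genes of vitamin B6 metabolism and of enzymes that use its cofactor, 2 rose in HA and none fell, with a median of 0.26. The share that rose was near that of all genes (18.7%). Ornithine decarboxylase (Odc1), the first enzyme of polyamine synthesis and a user of pyridoxal phosphate, rose from 26.5, 28.5 and 30.0 CPM to 204, 189 and 197 CPM, by 3.06 ± 0.19 (edgeR adjusted p = 1.037e-10). It also rose in IgG, by 2.05 ± 0.40 (adjusted p = 0.0059, and 0.0693 without animal 4 of IgG T3). Pdxp, a phosphatase that removes the cofactor, changed by 0.30 ± 0.30 (edgeR adjusted p = 0.455).

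Of 33 actin assembly genes, 12 rose and 2 fell in HA, with a median of 0.31. They were led by the Arp2/3 subunits Arpc1a (1.37 ± 0.17, edgeR adjusted p = 2.12e-06), Arpc1b (1.28 ± 0.18, adjusted p = 1.323e-05) and Arpc5 (1.19 ± 0.22, adjusted p = 0.00038), with cortactin (Cttn, 1.37 ± 0.19, adjusted p = 1.208e-05), which binds that complex. In IgG, 8 of 98 relatives passed, 7 higher and 1 lower (5.46% of all genes passed, 4.43% higher and 1.03% lower).

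Genes with the pattern most like each of the 7 were found by Pearson correlation of log2 CPM over the 12 libraries, whose 4 groups and depth all genes share. For Ezr these included Tgm1 (r = 0.964) and Lrrc15 (0.955), and for Frmd4a they were Trex1 (0.98), Tgm1 (0.976) and Poldip3 (0.972). For S100a10 they included Id3 (0.937) and Lrrc15 (0.898), and for Rhoj they were Lrrc15 (0.98), Gm12530 (0.976) and Klk9 (0.968). For Sept9 they were Mmp19 (0.974), Sertad2 (0.967) and Rhou (0.964), for Syt6 Id3 (0.937), Tgm1 (0.924) and Kazn (0.922), and for Pdxk Klk9 (0.976), Lrrc15 (0.976) and Fam132b (0.967). Tgm1 and Lrrc15 each recurred for at least 3 of the 7. Tgm1, a transglutaminase, had 0 counts in every T0 library, 16, 19 and 29 counts in HA at T3 and 0, 0 and 1 in IgG at T3. Lrrc15 had 12, 13 and 13 counts in HA at T3 and 0 in all other libraries. At the depth of IgG at T3 such counts cannot show absence. Between the 7 genes themselves, the 21 pairwise correlations ran from 0.749 to 0.972, with a median of 0.915, which the choice of the genes largely sets.

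The reads were counted near 3′ ends, and whether strand was used is not stated. An exon of Sytl3 on the other strand lies in the counted window of Ezr, one of Atg4a-ps in that of Syt6 and one of the antisense gene 4921516A02Rik in that of Pdxk. Without strand, reads from these could add to the 3 genes. The windows of Frmd4a, S100a10, Rhoj and Sept9 held no exon of another gene.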

How the data were processed

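Ribosome-bound RNA from 12 pull-downs of 6 mice was sequenced by bulk MARS-seq, a 3′ method with molecular identifiers, in pools of up to 8 samples whose membership is not given in the sources used here. The authors trimmed reads with cutadapt, aligned them with STAR 2.4.2a to mm10 and counted uniquely mapped reads with HTSeq from 1000 bases upstream to 100 bases downstream of annotated 3′ ends. The deposited values are raw UMI counts per gene. The series table and the sample files differed in 0 values, and 189 of 12975 genes never reached 5 counts. Unique mapping can lower counts of genes with near-identical copies.

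The 7 genes and all lists were chosen with earlier results of these data known. Counts were fitted over all genes with edgeR 4.0.16 (quasi-likelihood, TMM, filterByExpr; R 4.3.3), with Benjamini-Hochberg adjustment and a threshold of 0.05. Contrasts of 2 groups used their 6 libraries and the interaction all 12, with no term for the animal. Fold changes are on the log2 scale with their SE. Relatives were named by a rule: a fixed list per family plus up to 4 genes per list, contrast and direction with the smallest p. The 3 most similar genes per gene came from log2 CPM with a prior count of 2. Some genes that the rule names are not reported here. Alternatives were RLE scaling, library totals, other filters, DESeq2 1.42.0, each library left out, a replicate block and 1 fit of all libraries. The scripts were tested on simulated data without pairing, with differences of 2 on the log2 scale. The interaction test recovered 40.4% of these, and 6% of its calls were false. The contrasts of 2 groups recovered 86.5% to 97%. The simulation gave every gene the same spread between libraries beyond counting error. Apart from the set differences, each gene had the same mean CPM in all groups. These rates need not hold in the real data.

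Samples with the same number within a time point come from 1 animal, whose supernatant was split. Their deviations from the group means correlated by 0.174 to 0.357, against -0.233 to 0.008 between different animals, over 6580 genes. Numbers shared between T0 and T3 belong to different mice. Replicate libraries differed by more than sampling noise (chi-square per degree of freedom from 3.16). Counting intervals are exact 95% intervals of the ratio of 2 counts. Depth ranged from 88136 to 2870591 counts. Motifs were searched in RefSeq promoter windows (GRCm38.p6) and gene positions came from Gencode on GRCm38.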

Additional observations from a re-analysis of the deposited data

Results flagged for a closer look

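Each of the 7 genes was picked because its change from T0 to T3 differed between HA and IgG, so these differences are a description of the choice. The difference (HA change minus IgG change, log2) was 2.66 for Ezr, 2.69 for Frmd4a, 2.15 for S100a10, 2.01 for Rhoj, 2.48 for Sept9, 3.26 for Syt6 and 2.16 for Pdxk. Kit, the receptor that marks interstitial cells of Cajal, was the only gene of the marker lists that passed the interaction test of edgeR, and in the other direction, with -2.06. Its call was lost in 8 of 18 alternatives, when animal 2 or 4 of HA T0, 3 or 4 of HA T3, 1 or 4 of IgG T0, or 1 or 3 of IgG T3 was left out (edgeR adjusted p from 0.0518 to 0.147). It read 910, 976 and 1027 CPM in HA at T0 and 462, 379 and 281 CPM in HA at T3. In IgG it read 69.5, 96.0 and 65.1 CPM at T0 and 250, 228 and 64.4 CPM at T3, higher in animals 1 and 3, the libraries in which the glial marker sum was also higher.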

How the results depend on the processing

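For the 7 genes, every fitted HA change, every difference between HA and IgG at T3 and every interaction value stayed positive in all alternatives. The IgG changes of Rhoj (0.04) and Pdxk (0.07) lay near 0 and were positive in 8 of 13 alternatives each, with the lowest values, -0.18 and -0.11, without IgG T3 animal 4, the deepest of its group. The rule that chose the genes depended on single libraries: of the 7, 3 were past the interaction threshold with library totals, 6 with DESeq2 and 7 with RLE scaling. Without HA T3 animal 4 just Ezr and Frmd4a were, 4 were without HA T0 animal 2 or 4, and 5 to 7 without any other library.

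Over all genes the interaction count moved from 34 to 20 with RLE scaling, 8 with library totals and 83 with DESeq2, and from 5 to 95 when 1 library was left out (5 without HA T3 animal 4, 95 without IgG T3 animal 4). With the animal as a replicate block it was 158, and among relatives 7 in place of 0, against 3 with DESeq2 and 0 to 1 with 1 library left out. The IgG count moved from 285 to 519 with no filter, 705 with all libraries in 1 fit and 162 to 334 with 1 library left out, and among relatives from 8 to 13 with all libraries in 1 fit and to 3 at the lowest with 1 left out. For HA against IgG at T3 leaving out 1 library moved 1578 calls to between 849 and 1977. The block over the numbers that T0 and T3 share, which belong to different mice, kept animals 1 and 4 alone. It gave 3507 calls in HA and 411 in IgG, and is among the alternatives counted above for T3 against T0. The cause of these moves was not tested. The 1 to 58 counts behind the IgG values of the 7 genes at T3 limit what could be detected there.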
